A study of Mus musculus with 29 samples.

Results

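The small nucleolar RNAs measured here are the genes whose mouse symbol begins with Snord, Snora or Scarna. The array annotation gave 78 of them a row with that symbol alone. Of these, 76 reached a log2 value above 5 on at least 3 of the 29 arrays and were tested, among 14699 genes tested in all. They comprise 47 Snord genes (box C/D RNAs), 24 Snora genes (box H/ACA RNAs) and 5 Scarna genes (RNAs of Cajal bodies, some of them with boxes of both kinds). Snora19 and Snora2b, with mean log2 values of 3.81 and 4.14, exceeded 5 on 0 arrays and were not tested. Just inside the filter were Scarna8 and Snord90, each above 5 on 5 arrays, and Snord85, above 5 on 7. For Scarna8 and Snord90 only 1 of these arrays lay outside the 4 day 1 arrays that are set apart below. Where a gene had several rows (3 genes), the row of the highest mean was taken. A further 46 rows that carried several symbols, 16 of them with Snord116l names, were not used. Snord3a, Snord44, Scarna9, Scarna13 and Snora65 have no row of their own among the rows used and were not analysed here.

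Whole livers came from male C57BL/6N mice aged 8 to 10 weeks, wild type as far as the labels say. In the first 4 groups the extrahepatic common bile duct had been ligated (BDL), which blocks bile outflow and injures the liver, and liver was taken 1 day (5 arrays), 3 days (5), 7 days (5) or 21 days (5) later. The other groups were sham-operated mice of day 1 (3 arrays), day 3 (2) and day 7 (4). Animal numbers in the titles differ between arrays of a group. No sham group of day 21 was analysed here. The sham livers of day 7 took its place, so ligation and the passing of time cannot be told apart in that comparison.

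Small nucleolar RNAs (snoRNAs) pair with precursor ribosomal RNA in the nucleolus. Box C/D RNAs guide 2'-O-methylation of riboses and box H/ACA RNAs guide the conversion of uridine to pseudouridine, whereas a few of both kinds (U8, U13, U17, U22) are needed for cleavage or other maturation of the precursor. Scarna RNAs do the same work on spliceosomal RNAs. In mammals most snoRNAs are cut from introns of other genes after splicing, so the level of a snoRNA and that of its host messenger need not move together. A few, including U8 (Snord118), U13 (Snord13) and Scarna2, have promoters of their own. Mature snoRNAs carry no poly(A) tail. The labels' protocol states oligo(dT) priming and names another model of mouse expression array, while the row identifiers are those of the Mouse Gene 2.0 ST annotation, so how snoRNA entered the labelled material was not settled by the sources used here. Each row may also detect the intron or precursor around a snoRNA.

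Of the 8 day 1 arrays, 4 stood apart and are treated separately throughout: BDL day 1 replicates 2 and 3, and sham day 1 replicates 1 and 3. Over the genes tested, log2 values on these arrays had an SD of 1.55 to 1.58, against 1.64 to 1.70 on the 25 other arrays. The labels name no batch, and the model for every comparison carried a term for this array set beside the 7 group means. Over the genes tested, macrophage marker genes had mean log2 values of 8.30 to 8.80 on the BDL day 7 arrays and 6.80 to 7.08 on the sham day 7 arrays. Cholangiocyte markers stood at 6.17 to 6.50 and 5.37 to 5.57, and the defining hepatocyte genes at 12.69 to 12.74 and 12.78 to 12.87, on the same arrays. In whole liver, fewer cells of a type and less RNA per cell cannot be told apart, and the part of cell composition in the snoRNA values below was not tested.

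The snoRNA rows covered a wide range of signal. Their mean log2 values lay between 4.54 (Scarna8) and 13.05 (Snora33), with a median of 8.42, against a median of 6.60 over all genes tested. At the upper end were also Snord13 (12.30), Snord99 (12.17), Snord55 (11.67) and Snord104 (11.60). At the lower end were Snord85 (4.59), Snord90 (4.73), Snord91a (4.73) and Snord19 (4.76). These are positions on each row's own scale and give no order of abundance, since probes differ between rows. In all, 59 members exceeded 5 on every array.

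On the 4 low-spread day 1 arrays, snoRNA genes stood higher than on the other day 1 arrays. The term for the array set was positive past an adjusted p of 0.05 for 61 of 76 members and negative for 0, where 7.31% of all genes tested were called higher and 18.1% lower. At an unadjusted p under 0.05, limma gave 64 members higher and 0 lower, against 1846 higher and 3628 lower of 14699 genes tested. The median over members was 0.86, with a range of -0.57 (Snord91a) to 3.14 (Snora74a), while the median over all genes was -0.06. Of the 24 Snora genes 22 were called, with a median of 1.31. Of the 47 Snord genes 34 were called, with a median of 0.77, and all 5 Scarna genes, with a median of 0.83. Scarna8 and Snord90 exceeded 5 on 1 array each outside this set. They passed the filter only through the low-spread arrays, so their differences there are no evidence of a higher level. These arrays are no study group, both operations are among them, and where the set comes from was not tested.

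The mean over the 76 members was 8.98 and 9.38 on the low-spread BDL day 1 arrays and 9.10 and 9.44 on the low-spread sham day 1 arrays. On the other day 1 arrays it was 8.45, 8.43 and 7.97 in BDL livers and 8.23 in the sham liver. The 4 low-spread arrays thus held the highest member means of all 29 arrays, whichever operation the mouse had undergone. The mean over the genes that contain the members lay at 7.82 to 8.12 on the low-spread arrays and at 8.03 to 8.19 on the other day 1 arrays, so those genes did not stand higher.

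**Figure D1:**
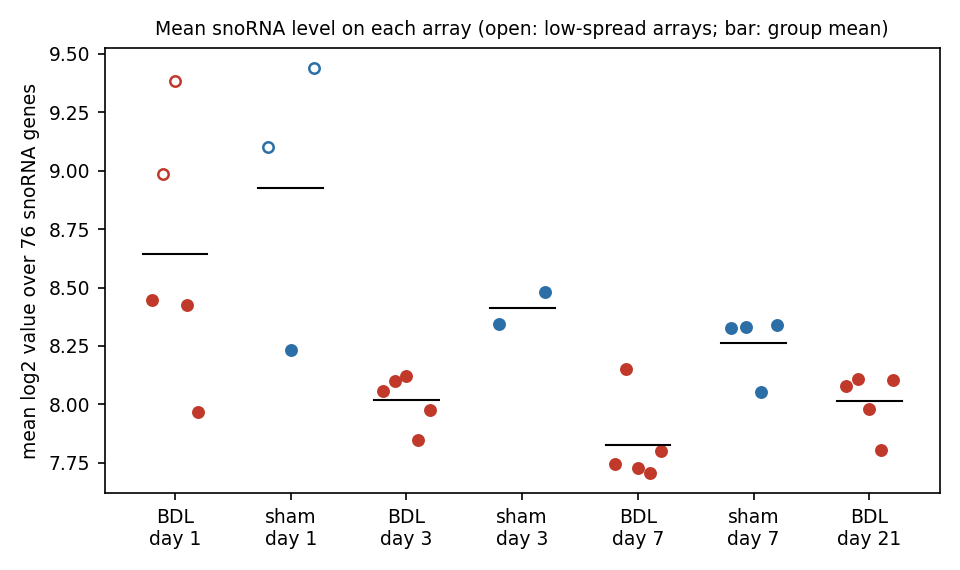
Mean log2 value over the 76 snoRNA genes (vertical axis) on each array, by operation and day. Red points are BDL arrays, blue points sham arrays, open points the 4 low-spread arrays, and bars group means. The open points lie at 8.98 to 9.44, and the BDL day 7 arrays at 7.71 to 8.15 against 8.06 to 8.34 on the sham day 7 arrays.

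Snora74a (U19), inside Snhg4, showed the largest array set difference. Its log2 values were 9.67, 10.47, 10.14 and 11.03 on the low-spread arrays, against 7.82, 7.76, 6.35 and 6.75 on the other day 1 arrays, a difference of 3.14 ± 0.29 (SE, adjusted p = 1.01e-07). The 2 sets of arrays did not overlap, and the containing gene Snhg4 differed by 0.01 (adjusted p = 0.98). Snora62, inside the ribosomal protein gene Rpsa, differed by 2.83 ± 0.27 (adjusted p = 1.37e-07), where Rpsa itself was lower by -0.62 (adjusted p = 0.0011). Snora31, inside Tpt1, differed by 2.34 ± 0.37 (adjusted p = 6.01e-05), and Snora73b, inside Snhg3, by 2.25 ± 0.44 (adjusted p = 0.000506). The smallest absolute differences included Snora78 (0.05), Snord88c (-0.08) and Snord99 (0.25), none of which passed the test.

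Pooled over classes, longer members had larger array set differences on these arrays, and within Snord genes the relation was weak by rank. Annotated lengths had a median of 68 bases (48 to 221) for Snord, 120.5 bases (61 to 205) for Snora and 71 bases (61 to 248) for Scarna genes. Across the 76 members the difference and the length had a Pearson r of 0.565 and a Spearman rho of 0.509. Within Snord genes the values were 0.396 and 0.125, and within Snora genes 0.476 and 0.349. By median, Snora genes were both longer and further raised on these arrays than Snord genes. Members are not independent replicates, since all were read from the same arrays, so no p is given. With the mean level of a member, the Pearson r was 0.0107.

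**Figure D2:**
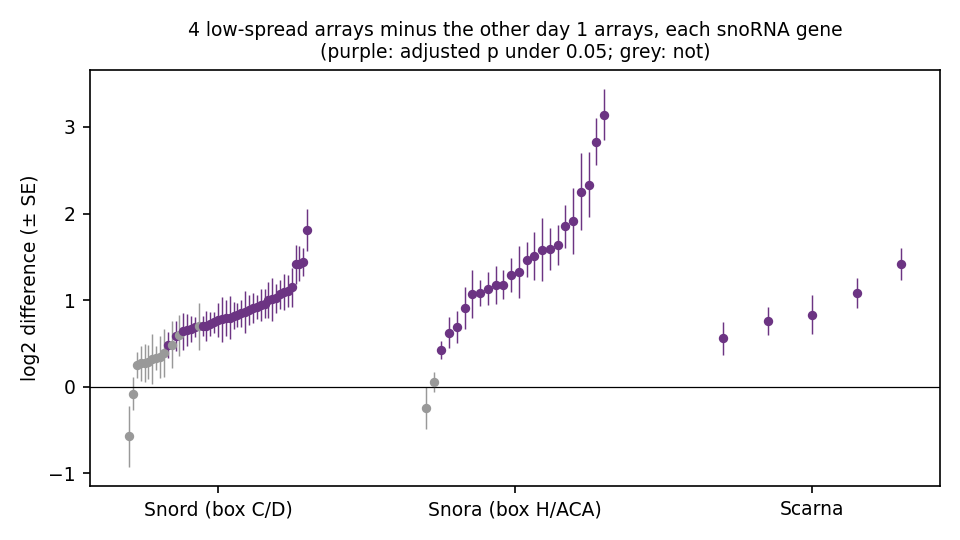
Difference of the 4 low-spread arrays from the other day 1 arrays for each snoRNA gene (log2, ± SE), ordered within the Snord, Snora and Scarna classes. Purple points passed an adjusted p of 0.05 (61 of 76), grey points did not, and the median was 1.31 for Snora genes and 0.77 for Snord genes. Scarna8 and Snord90 passed the filter only through the low-spread arrays.

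At day 7 after ligation, snoRNA genes were lower than in sham livers. Of 76 members, 36 fell (47.4%) and 0 rose, where 6.54% of all genes tested fell and 16.5% rose (23.0% called in either direction). At an unadjusted p under 0.05 limma gave 49 members lower and 1 higher, against 1732 lower and 3278 higher of 14699 genes tested. The median log2 change was -0.45 over members and 0.03 over all genes. In all, 69 members had a change below 0, as had 45.9% of all genes. The decrease took in 27 of 47 Snord genes (median -0.52), 8 of 24 Snora genes (median -0.38) and 1 of 5 Scarna genes (median -0.07). For 12 members every BDL array lay below every sham array, a pattern that 5.90% of all genes had. With 1 array left out at a time the members that fell numbered 24 to 45, with 24 when sham day 7 replicate 4 was dropped, and a model with no array set term called 19.

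Per array, the mean over members was 7.74, 8.15, 7.73, 7.71 and 7.80 in BDL day 7 livers, against 8.33, 8.33, 8.06 and 8.34 in sham day 7 livers. BDL replicate 2 was the highest of its group and lay above sham replicate 3, the lowest of its own. The group means were 7.83 ± 0.19 in BDL and 8.26 ± 0.14 in sham livers (SD, n = 5 and 4). Array spread differed too. Over the genes tested, BDL day 7 replicate 2 had the lowest SD of its group (1.64) and sham day 7 replicate 3 the highest (1.70). By contrast, BDL day 3 replicate 3 had the highest SD (1.68) and the highest member mean (8.12) of its group. Over all rows the SD was 2.13 to 2.18 on BDL day 7 arrays and 2.09 to 2.12 on sham day 7 arrays. The part of array spread in the snoRNA changes was not tested.

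Snora30 and Snord70 had the largest falls. Snora30, an H/ACA RNA on chromosome 7 inside Srcap, the gene of a chromatin remodelling ATPase, had log2 values of 6.00, 7.14, 6.68, 6.46 and 6.53 in BDL day 7 livers, against 7.99, 8.09, 7.53 and 8.06 in sham livers. All BDL arrays lay below all sham arrays, and the change was -1.35 ± 0.21 (SE), or 2.56-fold lower (adjusted p = 2.41e-05). Snord70, a C/D RNA on chromosome 1 inside Nop58, itself the gene of a core protein of C/D particles, had 7.88, 8.48, 8.96, 9.18 and 8.68 in BDL livers and 9.51, 10.14, 9.45 and 10.14 in sham livers. Its groups did not overlap either, with a change of -1.17 ± 0.22, or 2.26-fold lower (adjusted p = 0.000294). Snord1b, a C/D RNA on chromosome 11 inside Snhg16, had 7.63, 8.08, 8.92, 8.77 and 8.48 in BDL livers and 9.37, 9.61, 8.85 and 9.73 in sham livers. BDL replicate 3 lay above the lowest sham array, and Snord1b fell by 1.01 on the log2 scale, or 2.02-fold (SE 0.25, adjusted p = 0.00325).

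**Figure D3:**
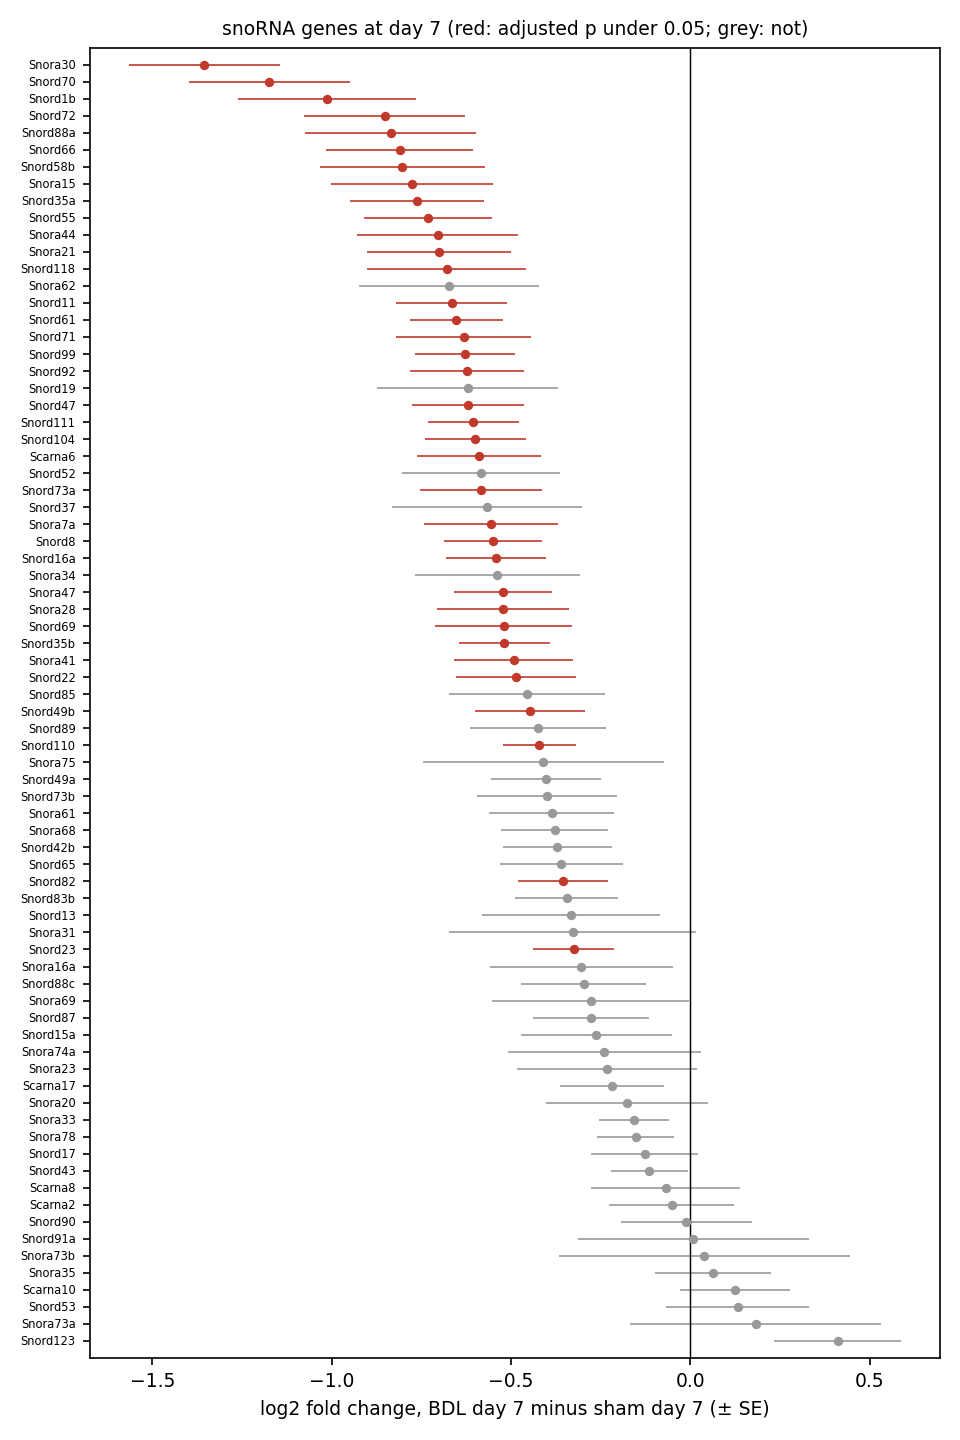
Log2 fold change of each of the 76 snoRNA genes, BDL day 7 minus sham day 7 (horizontal axis, ± SE), ordered by size. Red marks the 36 genes past an adjusted p of 0.05, all of them to the left of 0, with Snora30 at -1.35 and Snord23 at -0.33 as the largest and smallest called falls.

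Further Snord genes fell by less than 1 on the log2 scale. Snord72 had 5.12, 6.23, 5.20, 4.88 and 5.48 in BDL livers and 6.42, 5.89, 6.29 and 6.35 in sham livers, with BDL replicate 2 inside the sham range (-0.85 ± 0.22, adjusted p = 0.00605). Snord66 had 8.99, 9.57, 8.61, 8.52 and 8.76 in BDL livers and 9.68, 9.90, 9.36 and 9.86 in sham livers, with BDL replicate 2 inside the sham range, and fell by 0.81 (adjusted p = 0.00432). Snord88a (-0.84) and Snord58b (-0.80) also fell, each with at least 1 BDL array inside the sham range. Snora15 was the next H/ACA gene by size, with 6.09, 6.18, 6.22, 6.21 and 6.39 in BDL livers and 6.75, 7.18, 6.59 and 7.45 in sham livers, without overlap (-0.78 ± 0.23, adjusted p = 0.0124).

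Snord47, Snord61 and Snord55, C/D RNAs that serve as references in some small RNA assays, fell as well. Snord47 (U47) had 10.03, 10.95, 10.76, 10.74 and 10.76 in BDL livers and 11.28, 11.35, 10.99 and 11.46 in sham livers. All BDL arrays lay below all sham arrays, and the change was -0.62 ± 0.16 (adjusted p = 0.00402). Snord61, with 9.80, 10.15, 9.61, 9.63 and 9.65 in BDL livers and 10.49, 10.59, 10.16 and 10.44 in sham livers, fell without overlap (-0.65 ± 0.13, adjusted p = 0.000438). Snord104 had 11.00, 11.50, 10.96, 10.96 and 11.04 in BDL livers and 11.72, 11.77, 11.51 and 11.77 in sham livers, with BDL replicate 2 just under the lowest sham array (-0.60 ± 0.14, adjusted p = 0.00249). Snord55 (-0.73 ± 0.18, adjusted p = 0.00305) and Snord99 (-0.63 ± 0.14, adjusted p = 0.00131) fell too, and Snord49a had a change of -0.40 that did not pass (adjusted p = 0.06).

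Among the RNAs of precursor cleavage, U8 and U22 fell at day 7, each with a call that was lost in 8 of 18 alternatives. Snord118 (U8, for maturation of 5.8S and 28S rRNA) had 4.91, 5.80, 5.40, 4.99 and 5.20 in BDL livers and 6.28, 5.19, 6.10 and 6.19 in sham livers. Sham replicate 2 lay among the BDL arrays, and the change was -0.68 ± 0.22 (adjusted p = 0.0268). Snord22 (U22, for 18S rRNA) changed by -0.49 ± 0.17 (adjusted p = 0.0357). Snord13 (U13) had a change of -0.33 (adjusted p = 0.373) and Snora73a (U17a) one of 0.18 ± 0.35 (adjusted p = 0.766), and neither passed the test.

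Of the Cajal body RNAs, Scarna6 fell at day 7. It had 6.40, 7.19, 6.69, 6.80 and 6.69 in BDL livers and 7.23, 7.51, 6.96 and 7.67 in sham livers (-0.59 ± 0.17, adjusted p = 0.0134), with BDL replicate 2 inside the sham range. Scarna2, Scarna8, Scarna10 and Scarna17 had changes of -0.05, -0.07, 0.12 and -0.22 and did not pass.

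At day 3 after ligation, snoRNA genes were also lower than in the day 3 sham livers, of which there were only 2. Of 76 members 14 fell and 0 rose, where 4.95% of all genes fell and 8.40% rose. These 14 comprised 10 Snord, 3 Snora and 1 Scarna gene. At an unadjusted p under 0.05 limma gave 31 members lower and 0 higher, against 1549 lower and 2284 higher of 14699 genes tested. The median change was -0.44 over members and 0.02 over all genes, and 69 members lay below 0. Every BDL array was below both sham arrays for 42 members, a pattern that 11.3% of all genes had. The member mean was 8.06, 8.10, 8.12, 7.85 and 7.97 in BDL day 3 livers and 8.35 and 8.48 in sham livers, without overlap.

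The day 3 calls rested on both sham arrays. Without sham day 3 replicate 1 the count of members that fell was 1, without replicate 2 it was 0 (at an unadjusted p under 0.05, limma gave 16 lower and 1 higher), without BDL day 3 replicate 4 it was 4, and without BDL day 3 replicate 3 or 5 it was 9. Without the array set term it was 2. Snord85 changed most (-0.92 ± 0.27, adjusted p = 0.0233), with 4.10, 4.49, 4.82, 3.98 and 4.36 in BDL livers and 5.29 and 5.25 in sham livers, so its BDL values lay under the filter level of 5. Snora30 had 7.26, 6.87, 7.15, 6.17 and 6.86 in BDL livers and 7.66 and 7.73 in sham livers, without overlap (-0.83 ± 0.26, adjusted p = 0.0349). Snord73a had 8.21, 8.17, 7.82, 7.69 and 7.95 in BDL livers and 8.63 and 8.95 in sham livers (-0.82 ± 0.21, adjusted p = 0.00927). Snord71 (-0.82 ± 0.23, adjusted p = 0.0189), Snora44 (-0.83 ± 0.28, adjusted p = 0.0487), Snord55 (-0.71 ± 0.22, adjusted p = 0.0312), Scarna6 (-0.66 ± 0.22, adjusted p = 0.0416) and Snord42b (-0.66 ± 0.19, adjusted p = 0.019) fell too.

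At day 21 after ligation, set against the sham day 7 arrays that the day 7 comparison also used, 26 members were lower and 3 higher. Of all genes tested, 9.81% were lower and 19.5% higher. The median change was -0.31 over members and 0.02 over all genes. With 1 array left out, 20 to 32 members passed the threshold, rises counted with falls. Without the array set term 15 members were lower. Lower calls fell on 21 Snord, 4 Snora and 1 Scarna gene, and higher calls on 2 Snora genes and 1 Snord gene. All BDL arrays lay below all sham arrays for 17 members, against 7.93% of all genes, and above them for 4 members, against 17.0% of all genes. The member mean was 8.08, 8.11, 7.98, 7.80 and 8.11 in BDL day 21 livers. Over all rows the SD of log2 values was 2.15 to 2.18 on these arrays, against 2.09 to 2.12 on the sham day 7 arrays. BDL day 21 replicate 4 had the lowest member mean of its group and its highest SD over the genes tested (1.69). The part of array spread was not tested.

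The largest falls at day 21 were those of Snord1b, Snora30 and Snord70. Snord1b had 8.11, 7.79, 7.64, 7.29 and 8.08 in BDL day 21 livers, all below the 4 sham values given above, and the change was -1.61 ± 0.25, or 3.04-fold lower (adjusted p = 1.35e-05). Snora30 had 6.68, 6.90, 6.42, 6.19 and 6.47 (-1.38 ± 0.21, adjusted p = 1.1e-05) and Snord70 9.06, 8.58, 8.74, 8.36 and 8.60 (-1.14 ± 0.22, adjusted p = 0.000277), both without overlap. Scarna17, on chromosome 18, had 10.20, 10.48, 9.78, 10.14 and 10.42 in BDL day 21 livers and 10.94, 11.13, 10.52 and 10.90 in sham livers, without overlap (-0.67 ± 0.14, adjusted p = 0.000746).

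The 3 members higher at day 21 were Snora73a, Snora73b and Snord123. Snora73a and Snora73b are the U17 RNAs, H/ACA RNAs that take part in early cleavage of the 18S precursor, and both lie inside Snhg3 on chromosome 4. Snora73a had 9.06, 9.24, 9.30, 8.56 and 8.91 in BDL day 21 livers and 8.23, 7.60, 7.77 and 7.47 in sham day 7 livers. The groups did not overlap, and the change was 1.24 ± 0.35, or 2.37-fold (adjusted p = 0.00784). Snora73b had 9.40, 9.41, 9.48, 8.72 and 9.03 in BDL livers and 8.62, 7.87, 7.97 and 7.85 in sham livers, without overlap (1.13 ± 0.41, adjusted p = 0.0367), and the call was lost in 7 of 18 alternatives. The 2 genes are close copies, so signal may be shared between their rows.

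Snord123, a C/D RNA on chromosome 15 inside Snhg18, rose 2.22-fold at day 21. It had 6.13, 6.75, 6.55, 6.85 and 6.56 in BDL day 21 livers and 6.03, 5.47, 4.94 and 5.23 in sham day 7 livers (1.15 ± 0.18, adjusted p = 1.19e-05). At day 7 it had 5.66, 6.10, 5.75, 5.93 and 5.69 in BDL livers, a change of 0.41 that did not pass (adjusted p = 0.0961), so the BDL arrays overlapped the sham arrays at day 7 and not at day 21.

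At day 1 after ligation, 1 of 76 members was higher than in sham livers and 0 lower, where 8.21% of all genes were higher and 6.65% lower. At an unadjusted p under 0.05, limma gave 2 members higher and 3 lower, against 2147 higher and 1824 lower of 14699 genes tested. The median over members was -0.06. The called gene was Snord118 (U8), which had 7.02, 8.61, 8.76, 7.52 and 6.33 in BDL day 1 livers and 7.01, 5.40 and 7.73 in sham day 1 livers. The groups overlapped, but within the low-spread arrays the BDL values 8.61 and 8.76 lay above the sham values 7.01 and 7.73, and on the other arrays 7.02, 7.52 and 6.33 lay above 5.40. The change was 1.42 ± 0.25, or 2.67-fold (adjusted p = 0.000281). It was 1.32 within the low-spread arrays (adjusted p = 0.0249), 1.55 without them (adjusted p = 0.0228) and 0.93 in a model with no array set term, where it did not pass (adjusted p = 0.15). The value without the low-spread arrays sets 3 BDL arrays against 1 sham array, whose spread was taken to be that of the other groups. Without sham day 1 replicate 1, BDL day 1 replicate 3 or BDL day 1 replicate 5 the count was 2.

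The ligation effect itself differed between day 7 and day 1 for 4 members, all with a lower value at day 7, where 1.50% of all genes were called in that direction and 5.82% in the other (7.32% in all). Snord118 differed by -2.10 ± 0.34 (adjusted p = 0.000434), from a change of -0.68 at day 7 and 1.42 at day 1. Snora30 differed by -1.59 ± 0.32 (adjusted p = 0.0025), Snora41 by -1.01 ± 0.25 (adjusted p = 0.0125) and Snora47 by -0.81 ± 0.21 (adjusted p = 0.0146). Without the 4 low-spread arrays, where sham day 1 is a single array, the calls of Snora41 (-0.77, adjusted p = 0.242) and Snora47 (-0.83, adjusted p = 0.125) were lost, while Snord118 (-2.23, adjusted p = 0.0101) and Snora30 (-1.89, adjusted p = 0.0159) passed. The count was 0 with no array set term, where at an unadjusted p under 0.05 limma gave 5 members lower and 0 higher, and it was 13 without BDL day 7 replicate 2, 10 without sham day 1 replicate 3 and 9 without sham day 7 replicate 3.

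**Figure D4:**
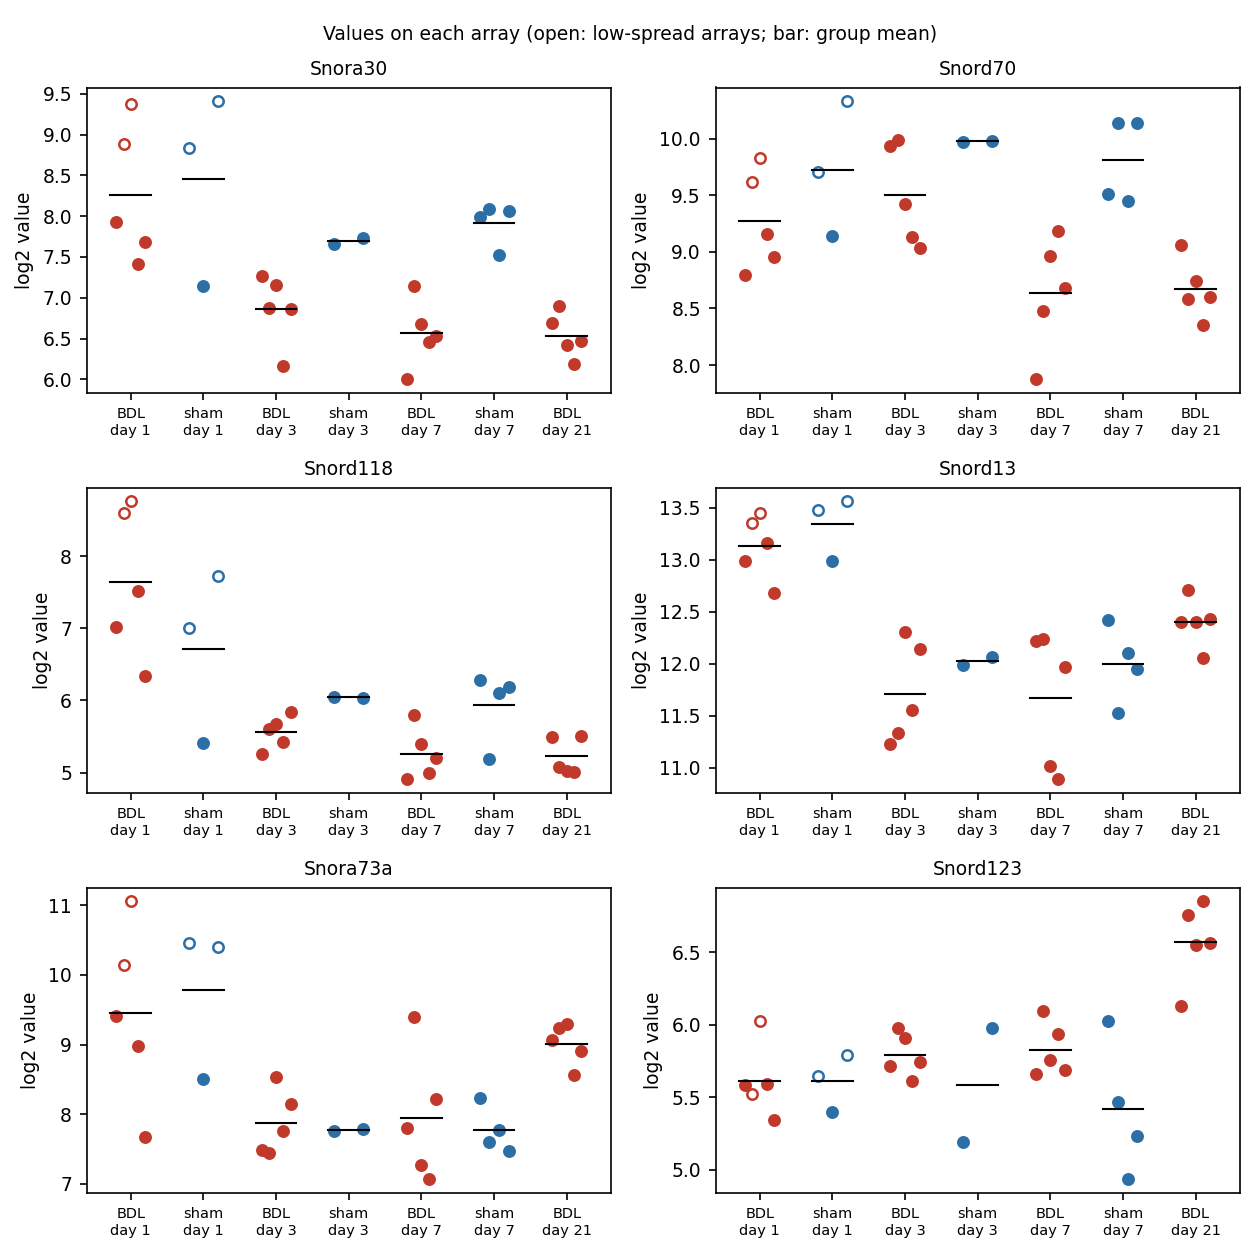
Log2 values on each array (points, open for the 4 low-spread arrays) and group means (bars) for Snora30, Snord70, Snord118, Snord13, Snora73a and Snord123, with BDL in red and sham in blue. Snora30 and Snord70 lie below sham at day 7 without overlap, and Snora73a and Snord123 lie above sham day 7 at day 21. Snord118 and Snord13 have their highest group means at day 1. For Snord118 in sham livers that mean rests on the low-spread arrays.

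Along the course of ligated livers, 7 members were lower at day 3 than at day 1 and 1 higher, where 4.39% of all genes were lower and 5.67% higher (10.1% in either direction). The day 1 arrays serve both this comparison and the day 1 one. Snord118 had 5.25, 5.61, 5.67, 5.42 and 5.84 in BDL day 3 livers, all below the 5 BDL day 1 values (-1.36 ± 0.23, or 2.58-fold lower, adjusted p = 0.000436). Snord13, the U13 RNA, which guides acetylation of 18S rRNA, had 11.23, 11.33, 12.30, 11.56 and 12.14 in BDL day 3 livers and 12.99, 13.35, 13.45, 13.17 and 12.68 in BDL day 1 livers. It fell without overlap (-1.22 ± 0.26, or 2.33-fold lower, adjusted p = 0.0027), while in sham livers it had 13.48, 12.99 and 13.56 at day 1 and 12.42, 11.53, 12.10 and 11.95 at day 7 (sham day 1 minus sham day 7 1.02 ± 0.34, adjusted p = 0.342).

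Snora31 (-1.61 ± 0.36, 3.06-fold lower, adjusted p = 0.00403), Snora74a (-1.32 ± 0.28, adjusted p = 0.00286), Snora16a (-0.97 ± 0.26, adjusted p = 0.0183), Snora34 (-0.92 ± 0.24, adjusted p = 0.014) and Snora30 (-0.74 ± 0.22, adjusted p = 0.0305) were the other members lower at day 3 than at day 1. Each of these H/ACA genes also stood higher on the low-spread arrays, and with no array set term 29 members were called. The share of all genes called under that model is not given here. The count was 4 without BDL day 1 replicate 1 and 5 without BDL day 1 replicate 4. Snord1b was higher at day 3 (0.88 ± 0.26, adjusted p = 0.028), with values between 8.88 and 9.39 in BDL day 3 livers and 7.74, 8.73, 9.12, 8.69 and 8.15 in BDL day 1 livers.

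Between days 3 and 7 of ligation 4 members fell and 1 rose, where 1.84% of all genes fell and 6.89% rose. Snord70 fell most, with 7.88, 8.48, 8.96, 9.18 and 8.68 at day 7 and 9.93, 9.99, 9.43, 9.13 and 9.04 at day 3, with 1 day 7 array inside the day 3 range (-0.87 ± 0.21, adjusted p = 0.01). The others that fell were Snord35a (-0.63 ± 0.18, adjusted p = 0.0233), Snora41 (-0.52 ± 0.16, adjusted p = 0.0351) and Snord99 (-0.50 ± 0.13, adjusted p = 0.018), and the higher one was Snord90 (0.57 ± 0.17, adjusted p = 0.0382). The call of Snora41 was lost in 9 of 18 alternatives. Snord90 exceeded 5 on 5 of the 29 arrays, and of these 1, BDL day 7 replicate 1, was outside the low-spread set, so on the other arrays of this comparison it lay under the filter level. Its change was 0.42 without that array and did not pass (adjusted p = 0.128), and the call was lost in 8 of 17 alternatives. The count of called members was 2 to 11 with 1 array left out, and it was 11 without BDL day 7 replicate 2, 2 without BDL day 7 replicate 1, and 3 without BDL day 7 replicate 5, BDL day 3 replicate 1 or BDL day 3 replicate 3.

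Between days 7 and 21 of ligation 2 members rose and 0 fell, where 0.503% of all genes rose and 0.551% fell (1.05% in either direction). At an unadjusted p under 0.05 limma gave 18 members higher and 2 lower, against 752 higher and 681 lower of 14699 genes tested. Snord73b had 11.58, 11.65, 11.52, 11.12 and 11.45 at day 21 and 10.72, 11.43, 10.02, 10.13 and 10.82 at day 7 (0.84 ± 0.18, adjusted p = 0.0175), with 1 day 7 array inside the day 21 range. Snord123 rose without overlap (0.74 ± 0.17, adjusted p = 0.0198). The count was 9 without BDL day 7 replicate 2 and 0 without BDL day 7 replicate 3, BDL day 21 replicate 2 or BDL day 21 replicate 3 (at an unadjusted p under 0.05, limma gave 13, 16 and 17 higher). It was 1 without BDL day 7 replicate 1, 4 or 5 and without BDL day 21 replicate 4 or 5. Between sham day 1 and sham day 7 livers 0 members passed, where 0.00680% of all genes were called. At an unadjusted p under 0.05 limma gave 5 members higher and 7 lower at day 1, against 705 higher and 681 lower of 14699 genes tested.

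For 60 members the gene that contains them in the RefSeq table of GRCm38.p6 was also tested, 47 genes in all. Containment was by position with no regard to strand, and exons and introns were not told apart. At day 7 these genes had a median change of 0.09, with 5 called higher and 1 lower, while the 60 members had a median of -0.42. The member's change was below that of its containing gene in 55 of 60 pairs, and across pairs the 2 changes had a Pearson r of 0.206 and a Spearman rho of 0.129, given without a p because pairs share arrays and some share a host. Of 27 members that fell and had a tested containing gene, 1 had a gene that fell (Snora28, inside Eif5, the gene of a translation initiation factor, -0.37, adjusted p = 0.0091), 1 had a gene that rose (Snord111, inside Sf3b3, 0.30, adjusted p = 0.0057), and 25 had a gene that was not called.

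The genes around the members of largest change are given singly. Srcap, around Snora30, changed by -0.01 at day 7 (adjusted p = 0.94), and Nop58, around Snord70, by 0.26 (adjusted p = 0.21). Snhg3, around the U17 RNAs, changed by 0.10 at day 21 (adjusted p = 0.73). Snhg18, around Snord123, rose by 0.52 at day 7 (adjusted p = 0.0043), where Snord123 did not pass, and by 0.75 at day 21 (adjusted p = 6.6e-05), where it did.

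For 1 host, chosen after values were seen, some members were called and others not. Differences between its members were not tested. Snhg12, a long non-coding host on chromosome 4, holds Snora16a, Snora44, Snora61 and Snord99, with day 7 changes of -0.30, -0.70, -0.39 and -0.63, of which Snora44 and Snord99 passed. At day 21 their changes were 0.50, -0.30, 0.18 and -0.67, of which Snord99 passed. Snhg12 itself changed by -0.28 at day 7 (adjusted p = 0.17) and by -0.45 at day 21 (adjusted p = 0.018). By kind of host, the day 7 median was -0.38 for 12 members inside genes named Rpl or Rps with a number (5 fell). It was -0.52 for 31 inside other protein-coding genes, Rpsa among them (17 fell), and -0.36 for 17 inside long non-coding or unnamed genes (5 fell).

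**Figure D5:**
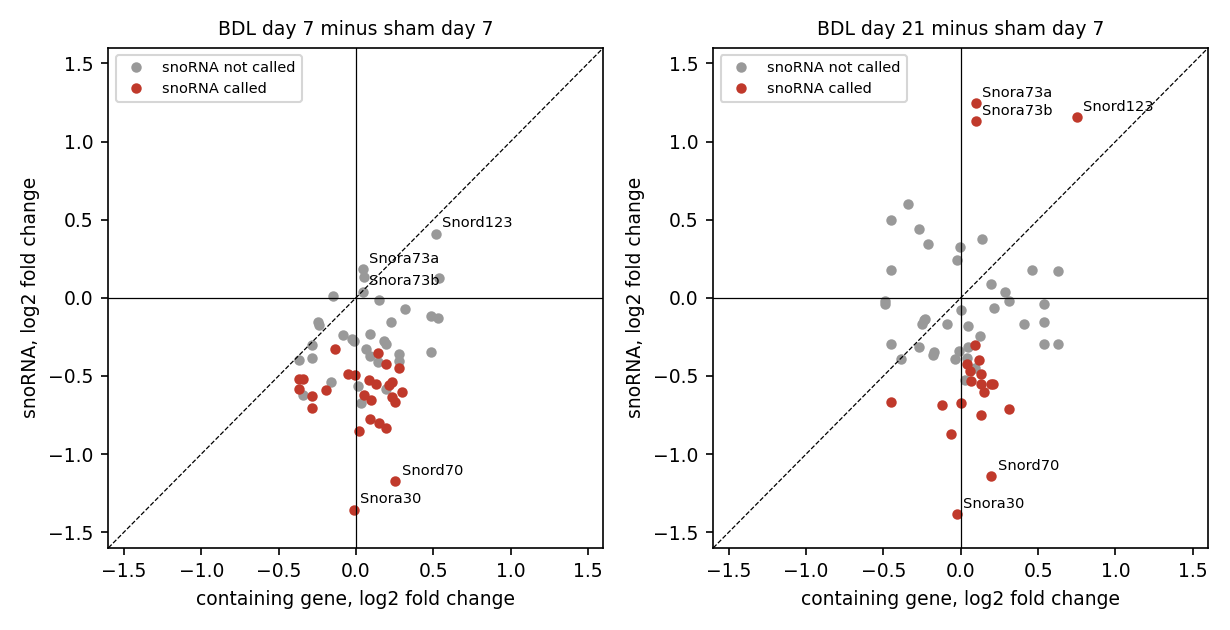
Log2 fold change of each snoRNA gene (vertical axis) against that of the gene containing it (horizontal axis) for 60 pairs, BDL day 7 minus sham day 7 at left and BDL day 21 minus sham day 7 at right. Red points are snoRNAs past an adjusted p of 0.05, and the dashed line marks equal change, below which 55 of 60 pairs lay at day 7 and 43 of 60 at day 21.

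Many host genes of snoRNAs begin their transcripts with a C and a run of pyrimidines, the feature known as a terminal oligopyrimidine start. The starts of the containing genes of the members above are printed from RefSeq (GRCm38.p6), on the strand of the gene, with 50 bases before the annotated start and 20 after it. Capitals mark the longest run of a C followed by at least 4 bases that are each C or T, among those beginning within 10 bases of the start.
Srcap (chr7:127511933-127512002, plus strand): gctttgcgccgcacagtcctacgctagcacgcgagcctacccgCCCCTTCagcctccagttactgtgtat
Nop58 (chr1:59684956-59685025, plus strand): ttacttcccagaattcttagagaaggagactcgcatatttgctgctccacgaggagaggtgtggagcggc
Snhg3 (chr4:132353667-132353736, minus strand): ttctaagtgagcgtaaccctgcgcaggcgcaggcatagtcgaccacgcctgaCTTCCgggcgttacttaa
Snhg18 (chr15:32244643-32244712, minus strand): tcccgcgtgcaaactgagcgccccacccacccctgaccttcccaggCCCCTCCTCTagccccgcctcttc
Snhg12 (chr4:132308628-132308697, plus strand): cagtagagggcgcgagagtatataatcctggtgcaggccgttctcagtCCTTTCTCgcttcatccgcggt
Such a run was found at Srcap (7 bases), Snhg3 (5), Snhg18 (10) and Snhg12 (8), and none began within 10 bases of the start of Nop58. On the gene's own strand it was found at 22 of 49 containing genes in the sequence table (44.9%) and at 8504 of all 27025 genes in it (31.5%). At Srcap the whole run lies within the 50 bases before the annotated start. Whether such runs bear on the snoRNA changes was not tested.

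Few genes of the protein partners of snoRNAs passed the test at day 7, where 16.5% of all genes tested rose and 6.54% fell. Of the box C/D core proteins (Fbl, Nop56, Nop58 and Snu13) 3 were tested and 0 passed, with a median of 0.19, and limma gave 1 higher and 0 lower at an unadjusted p under 0.05. Of 4 box H/ACA core proteins (Dkc1, Nop10, Nhp2, Gar1) 0 passed, with a median of 0.03 and 1 higher and 0 lower at an unadjusted p under 0.05. At that limit limma gave 3278 of 14699 genes tested higher and 1732 lower. Among 19 tested genes of snoRNP assembly and maturation 1 rose (Rpap3, 0.35) and 1 fell (Tent4b, -0.31, a polymerase that adds A residues to RNAs bound for trimming). Among 44 genes of RNA polymerase I and rRNA processing 2 rose (Taf1b, 0.45, and Mybbp1a, 0.30) and 1 fell (Rcl1, -0.66). At day 1, Nop58 was higher (0.63), Dkc1 lower (-0.37), and 6 of the 44 polymerase I and processing genes higher with 0 lower, where 8.21% of all genes were higher and 6.65% lower. Of the assembly genes, Nolc1 was higher (0.34, adjusted p = 0.0483) and Pih1d1 lower (-0.42, adjusted p = 0.00198) at day 1.

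Long non-coding host genes and ribosomal protein genes, set beside them, also showed few calls at day 7. Of 17 tested long non-coding hosts 1 rose and 0 fell at day 7 (median -0.08), and 4 rose at day 1, led by Snhg3 (1.38). At day 1, 8.21% of all genes tested rose and 6.65% fell. Ribosomal protein genes were listed by symbol (Rpl or Rps with a number), which takes in Rps19bp1 and Rps23rg1 and leaves out Rpsa. Of these 60 genes 2 rose and 0 fell at day 7 (median 0.03), led by Rpl3 (0.49). Other small non-coding RNAs, mostly microRNA precursors, had 16 of 160 lower and 0 higher at day 7 (median -0.16), and 26 lower and 0 higher at day 21 (median -0.17). Among all genes tested, 6.54% were lower and 16.5% higher at day 7, and 9.81% lower and 19.5% higher at day 21. On the low-spread arrays 30 of the 160 small non-coding RNAs were higher and 10 lower, led by Rpph1 (2.19, the RNA of ribonuclease P), Rnu12 (1.82, a minor spliceosomal RNA) and Rny3 (1.58, a Y RNA), while 6 of 17 long non-coding hosts were higher and 0 lower. On those arrays 7.31% of all genes were higher and 18.1% lower.

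Cell type markers moved at day 7 beside the snoRNA changes, where 16.5% of all genes tested rose and 6.54% fell. Macrophage markers rose for 6 of 6 (median 1.49), stellate cell and matrix markers for 6 of 7 (1.07), cholangiocyte markers for 5 of 5 (0.89), neutrophil markers for 2 of 4 and sinusoidal endothelial markers for 1 of 5. Hepatocyte markers fell for 3 of 9 (median -0.07), a lymphocyte marker for 1 of 4 and an exocrine pancreas marker for 1 of 1. Of the listed erythroid markers none was among the genes tested. Their part in the snoRNA values was not tested.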

How the data were processed

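The values are the series' table of log2 expression per array row, deposited by the authors; the submitters' processing notes name oligo 1.52.0 and RMA, a method that corrects background, quantile-normalizes and summarises probes. Which arrays were normalized together, and the genome build, are not given in the sources used here. Rows were named by the Mouse Gene 2.0 ST annotation: of 41345 rows, 23521 had 1 symbol, 1814 several and 16010 none. Of a gene's rows the one of highest mean was kept (22180 genes), and 14699 genes above log2 5 on at least 3 arrays were tested.

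Group means plus an additive term for the 4 low-spread day 1 arrays were fitted to all 29 arrays with lmFit and eBayes (limma 3.58.1, R 4.3.3), two-sided, with Benjamini-Hochberg adjustment over all 14699 genes and a threshold of 0.05. The SD limit of 1.6 for that set separates the arrays over the genes tested, not over all rows as first planned. Array precision is limited by the number of arrays. Replicate numbers follow deposit order and pair nothing. The p-values set each change against a spread between arrays that was estimated over all groups together, not over the groups compared alone.

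Members and lists were chosen with earlier results of these data known. Named members are the largest called changes per comparison (up to 8 a direction for BDL against sham, 5 otherwise), a preset list of well-known snoRNAs, the 5 highest and lowest in mean and array set difference, and those next to the filter; Snora28, Snord111, Snord61 and members given for overlap or for a shared host were chosen after their values were seen. Gene lists were the core, assembly, polymerase I, host, ribosomal protein, small RNA and cell type marker genes. On simulated data (14699 genes, 200 changed), 95% of genes changed by log2 1 and 45% changed by log2 0.5 were called at day 7, 88% and 21% at day 3, 96% and 51% at day 21, and 96% and 42% at day 1. The simulation drew the noise of each gene independently and changed far fewer genes than the 3383 called at day 7 or the 4303 at day 21. These rates therefore need not hold for the data. Alternatives were the model without the array set term, leaving out those 4 arrays, the filter, row choice, cyclic loess, only the groups compared, all 9 sham arrays as one group, and leaving out each array.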

Additional observations from a re-analysis of the deposited data

Results flagged for a closer look

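The ligation effect differed between day 7 and day 1 for 4 members by a test of the difference itself, with differences of -2.10 for Snord118, -1.59 for Snora30, -1.01 for Snora41 and -0.81 for Snora47. Without the 4 low-spread arrays Snora41 (-0.77, adjusted p = 0.242) and Snora47 (-0.83, adjusted p = 0.125) did not pass.

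In 12 of 235 member groups of 4 or 5 arrays, 1 array lay far from the rest by Dixon's criterion, which chance alone exceeds in about 1 in 20 groups. On BDL day 7 replicate 2, Snord85 stood at 5.01 (others 4.13 to 4.25), Snora62 at 8.28 (others 7.92 to 7.98), Snord15a at 8.24 (others 7.23 to 7.38), Snord104 at 11.50 (others 10.96 to 11.04) and Scarna2 at 10.13 (others 9.09 to 9.29), each above the other BDL day 7 arrays. That array also had the highest member mean of its group, 8.15 against 7.71 to 7.80, and without it 45 members fell at day 7 with a median of -0.56. On BDL day 7 replicate 1, Snord90 was high at 5.27 (others 4.41 to 4.60) and Snord47 low at 10.03 (others 10.74 to 10.95). On BDL day 21 replicate 4, Snord58b was low at 7.84 (others 8.47 to 8.71).

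Among sham day 7 arrays, Snord118 was low on replicate 2 at 5.19 (others 6.10 to 6.28) and Snord71 low on replicate 3 at 9.84 (others 10.34 to 10.38). On replicate 1, Snora73b was high at 8.62 (others 7.85 to 7.97) and Scarna2 high at 9.88 (others 9.25 to 9.34).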

How the results depend on the processing

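No named member's called change turned its direction under an alternative run, and changes of the other members were not followed singly. Without the array set term, the called members numbered 0 at day 1 (limma at an unadjusted p under 0.05: 1 higher, 5 lower), 2 at day 3, 19 at day 7, 16 at day 21, 29 between BDL days 3 and 1, 3 between BDL days 7 and 3, 13 between sham days 1 and 7, and 0 for the day 7 against day 1 effect. The medians under that model were -0.29 at day 1, -0.50 between BDL days 3 and 1, 0.50 between sham days 1 and 7, and -0.15 for the day 7 against day 1 effect. Without the 4 low-spread arrays the counts were 2 at day 1 and 8 between BDL days 7 and 3, where no filter gave 3, a filter of 6 gave 8 and only the compared groups gave 3. The mean of all rows gave 2 at day 1, all 9 sham arrays gave 5 at day 1, cyclic loess gave 7 for the day 7 against day 1 effect, and only the compared groups gave 9 at day 3 and 1 between BDL days 21 and 7. The share of all genes called under each alternative is not given here, so these counts alone do not set snoRNA genes apart.

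With each array left out in turn, counts (and medians) ranged from 1 to 2 (-0.14 to 0.07) at day 1, 0 to 19 (-0.49 to -0.37) at day 3, 24 to 45 (-0.56 to -0.43) at day 7, 20 to 32 (-0.38 to -0.27) at day 21, 4 to 11 (-0.25 to -0.14) between BDL days 3 and 1, 2 to 11 (-0.28 to -0.18) between BDL days 7 and 3, 0 to 9 (0.10 to 0.21) between BDL days 21 and 7, 0 to 0 (-0.10 to 0.07) between sham days 1 and 7, and 3 to 13 (-0.52 to -0.30) for the day 7 against day 1 effect. The median thus changed sign at day 1 and between sham days 1 and 7. Where counts moved, the cause was not tested. Snora30, Snord70, Snord1b, Snord72, Snord66, Snord35a, Snord55, Snord99, Snord47 and Snord104 were called at day 7 under every alternative run. No paired analysis was possible because the labels give no replicate numbers. The signal of members near the filter level of 5 limits what their changes can show.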
